A study of Mus musculus with 357 samples.

Results

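Gata1, Zfpm1, Klf1, Nfe2 and Epor were the assays for erythroid and megakaryocyte regulators and for the erythropoietin receptor on a panel of 96 gene assays, and they were chosen by name. Their products were measured by single-cell quantitative PCR in 357 hematopoietic stem cells (HSCs) of mouse bone marrow, sorted as Lin-Sca1+c-kit+CD48-CD150+. The cells of every group came from Col1a1-tetO-H2B-mCherry mice, in which a fluorescent histone had been induced; the label thins as a cell divides. HSCs were taken after 5 weeks of chase (91 cells on plate 1 and 83 on plate 2) or after 2 weeks of chase (90 cells on plate 1 and 93 on plate 2). The transgene is read from a tetracycline-responsive promoter at Col1a1; the transactivator that drove it, the age and sex of the mice and the number of animals are not stated in the labels.

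Red cells and platelets share a precursor, and a small set of nuclear proteins marks the way to both. GATA1 is a zinc finger factor that binds GATA motifs and is required for the maturation of erythroid cells and megakaryocytes. FOG-1, the product of Zfpm1, binds to GATA factors and acts as their cofactor. KLF1 binds CACCC motifs in globin and other erythroid genes, and NF-E2 p45, the product of Nfe2, pairs with small Maf proteins and is needed for platelet release. The erythropoietin receptor, Epor, signals through JAK2 and STAT5 and keeps late erythroid progenitors alive. In stem cells, low amounts of such transcripts are discussed as lineage priming.

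Gata1, Klf1 and Epor were the members present in a minority of the cells. Cells with Gata1 held Klf1 and Epor more often than cells without it, and the sequences at the starts of these genes are therefore shown. Most cells with any of the 3 products held only 1, however: 83 cells held 1, 28 held 2 and 10 held 3. Each sequence runs from 250 bases before to 50 bases after the RefSeq start on GRCm38.p6 and is read along the gene. Capitals mark the letters GATAA, bound by GATA factors, and CACCC, bound by KLF factors, on either strand (TTATC and GGGTG when read from the other one). The windows are chrX:7967861-7968160 (minus strand) for Gata1, chr8:84901732-84902031 (plus strand) for Klf1 and chr9:21963527-21963826 (minus strand) for Epor.
Gata1: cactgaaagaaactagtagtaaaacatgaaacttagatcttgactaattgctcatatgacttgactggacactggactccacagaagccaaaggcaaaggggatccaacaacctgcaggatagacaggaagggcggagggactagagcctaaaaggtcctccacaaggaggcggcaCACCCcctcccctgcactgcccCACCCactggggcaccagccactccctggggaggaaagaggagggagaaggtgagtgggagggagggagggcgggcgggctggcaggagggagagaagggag
Klf1: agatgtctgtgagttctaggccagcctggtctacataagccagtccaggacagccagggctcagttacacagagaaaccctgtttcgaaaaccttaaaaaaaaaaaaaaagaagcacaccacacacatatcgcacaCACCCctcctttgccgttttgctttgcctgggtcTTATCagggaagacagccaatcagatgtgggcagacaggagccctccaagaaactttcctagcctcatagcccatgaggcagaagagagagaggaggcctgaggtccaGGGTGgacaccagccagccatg
Epor: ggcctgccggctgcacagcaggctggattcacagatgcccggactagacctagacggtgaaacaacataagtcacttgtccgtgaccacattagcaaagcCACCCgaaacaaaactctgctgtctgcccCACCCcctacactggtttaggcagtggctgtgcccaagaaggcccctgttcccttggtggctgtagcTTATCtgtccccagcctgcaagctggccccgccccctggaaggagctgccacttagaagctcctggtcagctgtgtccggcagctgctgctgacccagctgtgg
The Klf1 window held 1 GATAA match, 80 bases before the start, with 2 CACCC matches, and the Epor window held 1 GATAA match, 54 bases before the start, with 2 CACCC matches. The Gata1 window held 2 CACCC matches, 74 and 52 bases before the start, and no GATAA letters. In the window of Zfpm1 (chr8:122281891-122282190, plus strand) there were 3 CACCC matches and no GATAA letters. Of 32851 mouse promoter windows of the same length, 25.4% held GATAA, 57.5% held CACCC and 12.6% held both. No match overlapped another, and a match in the letters is not a measured binding site.

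The unit of measurement was the threshold cycle (Ct), the PCR cycle at which fluorescence passes a set threshold, so that a lower Ct means more template. A product at Ct 25 or below counted as detected. A level was obtained per cell by subtracting the Ct of the gene from the mean Ct of 12 reference assays, in log2 units, and was averaged over the cells that held the product. The reference assays were detected in at least 95% of the cells on every plate, and no member was among them. Levels of different assays were not compared, because their efficiencies are unknown. With no animal named in the labels, a chase time was treated as 1 sample, and times were compared without a test. Plates, 2 per time, were the only repeated unit, and a gene was called higher or lower at 5 weeks when both of its 5-week plates lay on the same side of both 2-week plates. Each plate held 1 chase time, so plate and time cannot be told apart. Intervals on shares are exact (Clopper-Pearson) 95% intervals and cover counting error only.

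Cells of the 5-week plates had the lower reference Ct. It was 12.80 ± 0.65 (mean ± SD over cells), against 13.15 ± 0.53 at 2 weeks, and they held 58.8 ± 5.71 detected assays, against 54.6 ± 5.36. The sorted phenotype was partly visible in the transcripts. Kit was detected in 99.4% of 5-week cells and 98.9% of 2-week cells, Ly6a (Sca1) in 72.99% and 91.26%, Slamf1 (CD150) in 55.7% and 72.1%, and Cd48 in 3 and 2 cells. Of 6 markers of erythroid cells, 0 were on the panel, and of 4 markers of megakaryocytes only Itga2b was. Of 5 granulocyte and monocyte markers Csf1r was on the panel (2.30% of 5-week cells and 14.8% of 2-week cells), of 5 lymphocyte markers Ebf1 (0 cells of the series, which allows up to 0.84%) and Dntt (6.90% and 8.74%), and of 4 endothelial and stromal markers 0. At Ct 18 or below the Csf1r products numbered 4 of 4 at 5 weeks and 3 of 27 at 2 weeks, and those of Dntt 0 of 12 and 1 of 16, so that most of both came late. Whether more mature cells were among those sorted was therefore not tested for the erythroid lineage.

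The 5 genes fell into a constant and an occasional set. Nfe2 and Zfpm1 were detected in nearly every stem cell, whereas Epor, Gata1 and Klf1 were detected in 25.5%, 15.7% and 6.16% of all 357 cells. The order of these shares, Nfe2, Zfpm1, Epor, Gata1 and Klf1, was the same at both times. The exact intervals of Epor (21.05 to 30.34%), Gata1 (12.1 to 19.9%) and Klf1 (3.90 to 9.18%) over all cells did not overlap, and those of Nfe2 and Zfpm1 did (98.45 to 99.99% and 96.00 to 99.21%). These intervals pool the plates. The efficiencies of the assays are unknown, so the order of detection need not be that of the transcripts. At 5 weeks, 4 of the 5 genes were detected in more cells with plates apart and 0 in fewer. This is read against the whole panel, where 42.7% of the 96 assays were higher and 7.29% were lower, and the median difference of the 5 genes (2.70 percentage points) was no larger than that of all assays (2.85 points).

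**Figure D1:**
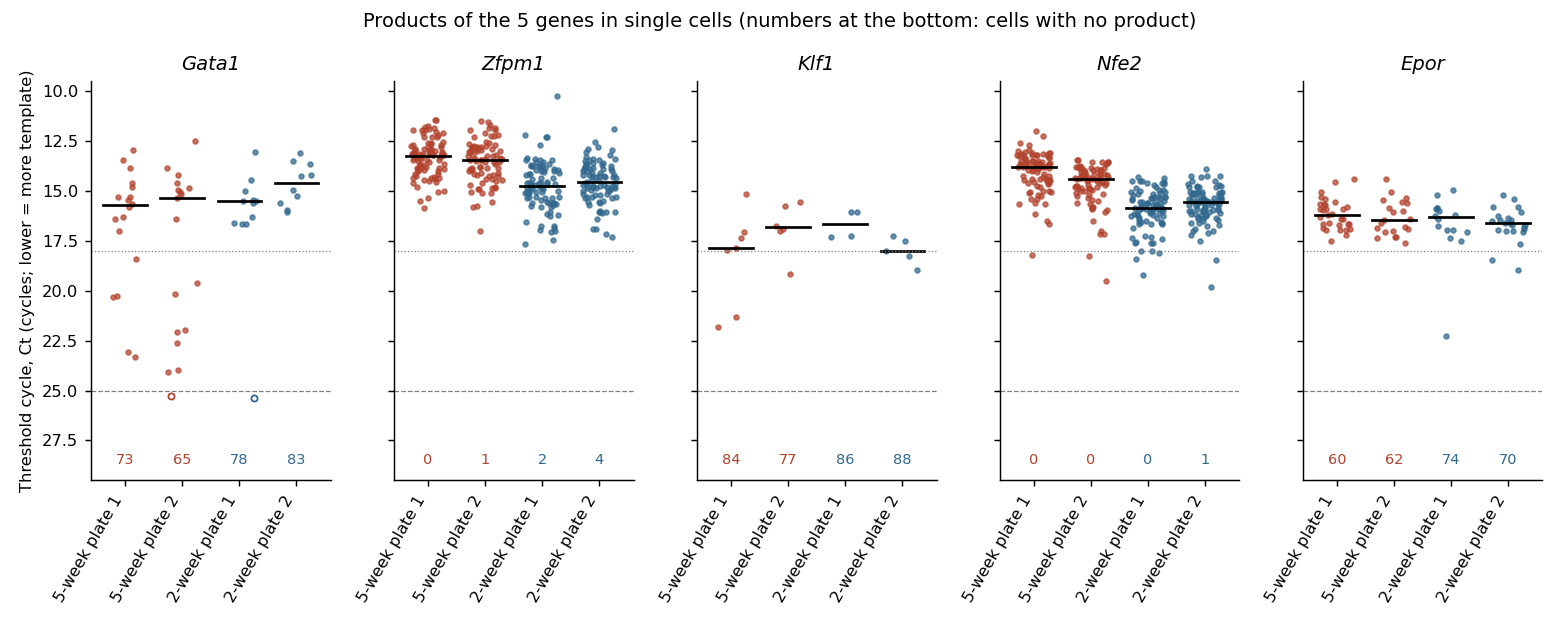
Threshold cycle of every product of the 5 genes, by plate. The vertical axis is Ct in cycles and runs downward, each point is a cell, horizontal bars are medians of detected products, dashed and dotted lines mark Ct 25 and Ct 18, open circles are products after Ct 25, and the numbers at the bottom count cells with no product. Zfpm1 and Nfe2 products come earlier on both 5-week plates, and Gata1 products between Ct 18 and 25 appear on 5-week plates only.

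Gata1 was detected in 18 of 91 cells (19.8%, interval 12.2 to 29.45%) and 17 of 83 cells (20.5%, 12.4 to 30.8%) on the 5-week plates, against 11 of 90 (12.2%, 6.26 to 20.8%) and 10 of 93 (10.8%, 5.28 to 18.9%) on the 2-week plates. The plates of the times did not overlap, but the intervals of single plates did. The products spread over a wider range of Ct at 5 weeks. On the 5-week plates they lay between Ct 12.98 and 23.33 (median 15.7) and between 12.5 and 24.1 (median 15.3), whereas on the 2-week plates they lay between 13.1 and 16.7 (median 15.5) and between 13.1 and 16.1 (median 14.6). Only 2 Gata1 products of the series, at Ct 17.01 and 18.41, fell between Ct 17 and 19, and a wider gap, from 20.30 to 21.98, lay among the later ones. A wider spread at 5 weeks was not particular to Gata1. The SD of the level of Prmt2 was 1.71 and 2.36 on the 5-week plates, against 0.77 and 0.82 on the 2-week plates. That of Trp53 went the other way, with 0.73 and 0.68 against 1.11 and 1.13.

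Split at Ct 18, early Gata1 products overlapped between the times, and the late ones were on the 5-week plates. Early products were found in 13 (14.3%) and 10 cells (12.05%) of the 5-week plates and in 11 (12.2%) and 10 cells (10.8%) of the 2-week plates, which overlap. Over all cells the shares were 13.2% (8.57 to 19.2%) at 5 weeks and 11.5% (7.25 to 17.01%) at 2 weeks. At the Ct 18 limit 43.8% of all assays were higher and 5.21% were lower with plates apart, and 4 of the 5 members were higher, with Nfe2 (98.3% against 95.6%) in the place of Gata1. Late products, between Ct 18 and 25, were found in 5 and 7 cells of the 5-week plates and in 0 cells of the 2-week plates, which allows a share of up to 1.64%. Later still, 1 product on 5-week plate 2 and 1 on 2-week plate 1 came after Ct 25. The dye used reports any double-stranded DNA, and whether the late products are Gata1 cDNA was not tested. More late products at 5 weeks were also seen for Flt3. Of its products, 53 of 82 at 5 weeks and 84 of 86 at 2 weeks came at Ct 18 or below. For Epor the late products were on the 2-week plates.

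The mean level of Gata1 moved with that split. Over detecting cells it was -4.53 ± 2.82 (SD, n = 18 cells) and -4.85 ± 3.73 (n = 17) on the 5-week plates, against -2.87 ± 0.80 (n = 11) and -2.07 ± 0.90 (n = 10) on the 2-week plates, a difference of -2.19 log2 units. With early products only, the difference was -0.14 and the plates overlapped.

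Klf1 was the least often detected of the 5 genes and was found in 7 of 91 (7.69%, 3.15 to 15.2%) and 6 of 83 cells (7.23%, 2.70 to 15.1%) on the 5-week plates, against 4 of 90 (4.44%, 1.22 to 10.99%) and 5 of 93 (5.38%, 1.77 to 12.1%) on the 2-week plates. The shares did not overlap between times, with a difference of 2.55 points that rests on 13 and 9 cells. Its products came at Ct 15.1 to 21.8 (median 17.9) and 15.5 to 19.2 (median 16.8) at 5 weeks, and at 16.04 to 17.32 (median 16.66) and 17.24 to 18.96 (median 17.99) at 2 weeks. With so few cells the levels of Klf1 were not compared between times.

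Epor was detected in 31 of 91 (34.1%, 24.5 to 44.7%) and 21 of 83 cells (25.3%, 16.4 to 36.04%) on the 5-week plates, against 16 of 90 (17.8%, 10.5 to 27.3%) and 23 of 93 (24.7%, 16.4 to 34.8%) on the 2-week plates. The plates were apart by a narrow margin, since 5-week plate 2 and 2-week plate 2 differed by 0.57 points. Over all cells the difference was 8.57 points, and it was 3.99 without 5-week plate 1 and 5.15 without 2-week plate 1. All 52 products of the 5-week cells were early ones, between Ct 14.4 and 17.6, whereas the 39 products of the 2-week cells lay between 14.95 and 22.28 and 3 of them came after Ct 18. Among detecting cells the level was -3.87 ± 0.81 (SD, n = 31 cells) and -3.75 ± 0.94 (n = 21) at 5 weeks against -3.83 ± 1.74 (n = 16) and -3.82 ± 0.93 (n = 23) at 2 weeks. The plates overlapped, and the call depended on the scaling: without centring Epor was 0.47 log2 units higher at 5 weeks with plates apart, and with early products only it was -0.25, lower with plates apart (20% of 70 assays were lower in level at this limit, and 40% higher).

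**Figure D2:**
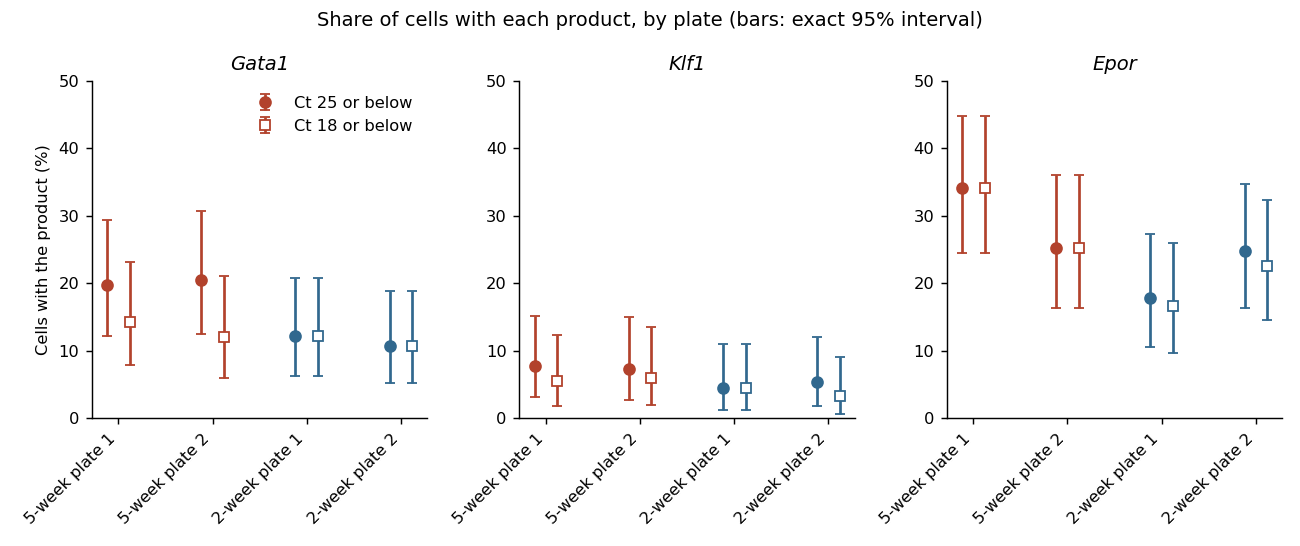
Share of cells (%) with a Gata1, Klf1 or Epor product on each plate, with filled circles for Ct 25 or below and open squares for Ct 18 or below. Bars are exact 95% intervals. For Gata1 the filled circles stand near 20% on the 5-week plates and near 11 to 12% on the 2-week plates, while the open squares overlap.

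Zfpm1, the partner of GATA1, gave the earlier products at 5 weeks. The Ct had a median of 13.2 (range 11.4 to 15.9) and 13.4 (11.5 to 17.02) on the 5-week plates, against 14.8 (10.3 to 17.6) and 14.6 (11.9 to 17.3) on the 2-week plates. Its mean level was -0.63 ± 0.77 (SD, n = 91 cells) and -0.65 ± 0.90 (n = 82) at 5 weeks, against -1.61 ± 1.00 (n = 88) and -1.47 ± 0.98 (n = 89) at 2 weeks. Both 5-week plates lay above both 2-week plates, by 0.81 to 0.98 log2 units in the 4 comparisons of plates, and the difference of 0.90 was the fourth highest of 80 assays. If each cycle doubles the product, it is 1.86-fold. The few cells without Zfpm1 numbered 1 at 5 weeks and 6 at 2 weeks.

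Nfe2 was present in every cell at 5 weeks and in all but 1 cell at 2 weeks, and its products also came earlier at 5 weeks. The Ct had a median of 13.8 (range 11.99 to 18.22) and 14.4 (13.4 to 19.5) on the 5-week plates, against 15.8 (14.3 to 19.2) and 15.6 (13.9 to 19.8) on the 2-week plates. Its mean level was -1.36 ± 0.80 (SD, n = 91 cells) and -1.80 ± 0.82 (n = 83) at 5 weeks, against -2.76 ± 0.89 (n = 90) and -2.56 ± 0.88 (n = 92) at 2 weeks. The difference of 1.09 log2 units (0.76 to 1.40 over plate comparisons) was the second highest of 80 assays and comes to 2.13-fold if each cycle doubles the product.

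In level, then, 2 of the 4 members with a value were higher (40% of the 80 assays were) and 1, Gata1, was lower (28.8% of the assays were). Without 5-week plate 2, Epor was lower too (-0.043), and without 5-week plate 1 it was higher (0.070), which made 3 members higher. The direction of Zfpm1 and Nfe2 held under each scaling tried, with 0.75 to 1.25 log2 units for Zfpm1 and 0.95 to 1.44 for Nfe2. The scalings were no centring (61.2% of assays higher and 7.5% lower), Actb and Gapdh (56.2% and 11.2%), the median of all assays (42.5% and 17.5%) and a reference set that includes the members (30% and 43.8%). Epor was higher with plates apart under the first 3 of these and lower under the last, and Gata1 was lower under all 4. The median of all assays moved by 0.37 without centring, and Zfpm1 at 1.25 and Nfe2 at 1.44 lay above it.

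Detection of the occasional genes went with the template of the cell. When all cells were placed in 4 equal bins by their mean reference Ct, lowest Ct first, Epor was detected in 47.8%, 24.7%, 20.2% and 8.99% of them. The fall was seen at each time: 47.8%, 25%, 20.5% and 3.85% of the 5-week cells and 47.6%, 24.5%, 20% and 11.1% of the 2-week cells. Gata1 was found in 28.99%, 15%, 17.9% and 7.69% of 5-week cells and in 33.3%, 18.4%, 8% and 1.59% of 2-week cells. Klf1 was found in 13.04%, 2.5%, 5.13% and 3.85% of 5-week cells and in 19.05%, 6.12% and 4% of 2-week cells of the first 3 bins, and in 0 of 63 in the last, which allows up to 4.76%. The bins held 69, 40, 39 and 26 cells of the 5-week time and 21, 49, 50 and 63 of the 2-week time.

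**Figure D3:**
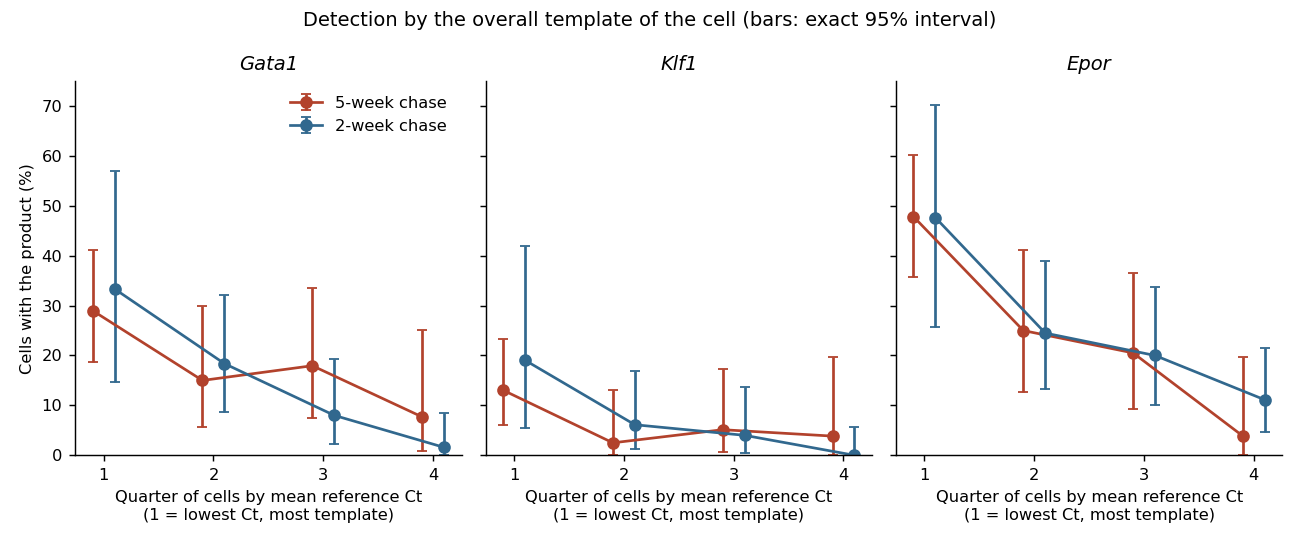
Share of cells (%) with a Gata1, Klf1 or Epor product in 4 bins of the mean reference Ct, bin 1 having the lowest Ct and so the most template. Lines join the bins of each chase time, and bars are exact 95% intervals. The Epor curves of the times lie on each other in the first 3 bins, and the intervals overlap in every bin of each gene.

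With the times given the same mix of these bins, the difference in share between 5 and 2 weeks was 2.07 points for Gata1, -1.18 for Klf1, -1.50 for Epor and 1.42 for Zfpm1. The plates overlapped for all 5 genes, so that 0 of 5 were called higher, against 34.4% of all assays. Each bin weighs about the same in this matching, however few cells of a plate it holds. The first bin held only 8 cells of 2-week plate 1, with Gata1 in 4 (50%) and Klf1 in 3 (37.5%). It held 13 cells of 2-week plate 2, with 23.1% and 7.69%. The overlap of Gata1 and Klf1 therefore rests on few cells. A logistic fit with the reference Ct gave 2.13 points for Gata1, -0.75 for Klf1 and -2.15 for Epor. Matching on the number of detected assays instead left Gata1 at 5.18 points, Klf1 at 2.94 and Zfpm1 at 1.24 with plates apart (32.3% of assays were higher), and Epor at 1.20 with plates overlapping. Over all cells of a time, the level of Zfpm1 and Nfe2 was higher at 5 weeks in each bin of reference Ct. For Nfe2 it was -1.61, -1.71, -1.24 and -1.76 at 5 weeks against -2.98, -2.74, -2.68 and -2.49 at 2 weeks, and for Zfpm1 -0.69, -0.78, -0.46 and -0.58 against -1.16, -1.66, -1.51 and -1.60. By plate, Nfe2 was apart in every bin, but Zfpm1 overlapped in the first, with -0.72 and -0.65 on the 5-week plates against -0.48 and -1.58 on the 2-week plates.

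Cells with a Gata1 product held Klf1 and Epor products more often than cells without one. Klf1 was present in 9 of 35 cells with Gata1 (25.7%, 12.5 to 43.3%) and in 4 cells without (2.88%, 0.79 to 7.20%) at 5 weeks, and in 6 of 21 with Gata1 (28.57%, 11.3 to 52.2%) and 3 cells without (1.85%, 0.38 to 5.32%) at 2 weeks. Each of the 4 plates showed this order, with 5 of 18 against 2 of 73 and 4 of 17 against 2 of 66 cells at 5 weeks, and 3 of 11 against 1 of 79 and 3 of 10 against 2 of 83 cells at 2 weeks. Seen from the other gene, 15 of the 22 cells with Klf1 also held Gata1. These are descriptions over cells of 1 sample per time, and no test was made on them.

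Epor was present in 18 of 35 cells with Gata1 (51.4%, 33.99 to 68.62%) and 34 cells without (24.5%, 17.6 to 32.5%) at 5 weeks, and in 11 of 21 with Gata1 (52.4%, 29.8 to 74.3%) and 28 cells without (17.3%, 11.8 to 24%) at 2 weeks. On every plate the share was higher beside Gata1. In cells with Klf1, Epor was present in 10 of 13 (76.9%, 46.19 to 94.96%) against 42 cells without (26.1%, 19.5 to 33.6%) at 5 weeks, and in 4 of 9 (44.4%, 13.7 to 78.8%) against 35 cells without (20.1%, 14.4 to 26.8%) at 2 weeks.

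**Figure D4:**
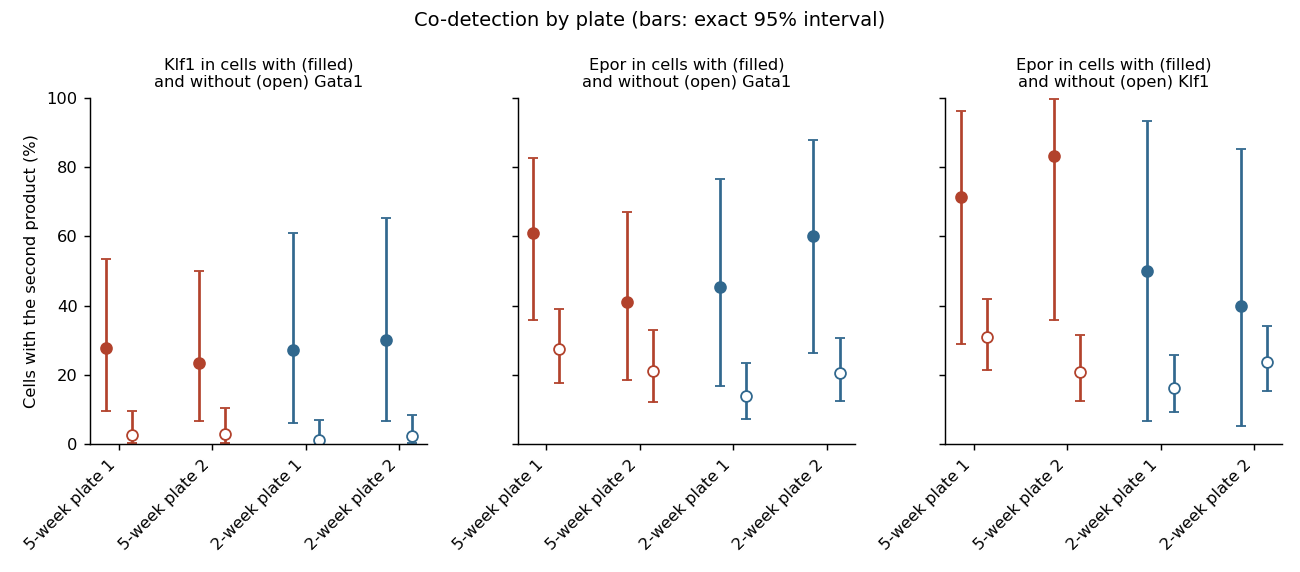
Share of cells (%) holding the second product among cells with (filled) and without (open) the first, by plate, for Klf1 beside Gata1, Epor beside Gata1 and Epor beside Klf1. Bars are exact 95% intervals. The filled circle lies above the open one on all 4 plates in each panel, and the intervals are wide because 4 to 18 cells stand behind each filled circle.

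Cells with Gata1 also had more template, with a mean reference Ct of 12.57 ± 0.80 against 12.86 ± 0.59 without Gata1 at 5 weeks and 12.63 ± 0.54 against 13.22 ± 0.49 at 2 weeks (SD over cells). A comparison within the bins, over both times together, was added after the data were seen. Within the bin of lowest reference Ct, Klf1 was found in 10 of 27 cells with Gata1 (37.0%) and 3 of 63 without (4.76%), and Epor in 20 of 27 (74.1%) and 23 of 63 (36.5%). In the next bins Klf1 was found in 3 of 15 cells with Gata1 against 1 of 74 without, in 2 of 11 against 2 of 78, and in 0 of 3 against 1 of 86. In these bins Epor was found in 5 of 15 cells with Gata1 against 17 of 74, in 4 of 11 against 14 of 78, and in 0 of 3 against 8 of 86. For both genes the exact intervals with and without Gata1 were apart in the first bin and overlapped in the others. Template still varied among the cells of a bin, and its part in the co-detection was not tested.

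Counting all 3 occasional products, 59.8% of cells at 5 weeks and 72.1% at 2 weeks held none. All 3 were found together in 7 cells (4.02%) at 5 weeks and 3 cells (1.64%) at 2 weeks. Epor alone was found in 31 and 27 cells, Gata1 alone in 15 and 7, and Klf1 alone in 1 and 2.

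The level of Zfpm1, but not of Nfe2, was higher on every plate in the cells that held Gata1. For Zfpm1 it was -0.28 ± 0.91 (SD, n = 35 cells) with Gata1 and -0.73 ± 0.79 without at 5 weeks, and -0.59 ± 0.80 (n = 21) against -1.66 ± 0.94 without at 2 weeks. By plate the differences were 0.48 and 0.41 at 5 weeks and 1.37 and 0.75 at 2 weeks. For Nfe2 they were -0.20 and 0.10 at 5 weeks and -0.27 and -0.51 at 2 weeks. Zfpm1 was also higher in cells with Epor, by 0.24 and 0.44 at 5 weeks and by 0.67 and 0.13 at 2 weeks.

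The other genes were also read in cells with an early, a late or no Gata1 product, where cells with none had no product at Ct 25 or below. At 5 weeks, Klf1 was found in 9 of 23 cells with an early product, in 0 of 12 with a late one and in 4 cells with none (2.88%), and 0 of 12 allows a share of up to 25%. Epor was found in 15 of 23 (65.2%), 3 of 12 (25%) and 24.5% of cells. Zfpm1 stood at -0.13 ± 1.02, -0.59 ± 0.57 and -0.73 ± 0.79 (SD) in the same order. In each of these measures the cells with a late product lay nearer to cells with none than to cells with an early one. The late class held only 12 cells, and its difference from either class was not tested. The mean reference Ct of 5-week cells with a late product was 13.03 ± 0.98 (SD), against 12.33 ± 0.58 for early products and 12.86 ± 0.59 for none. Among the cells with a late product, 1 had a reference Ct of 15.82, the highest of the series.

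**Figure D5:**
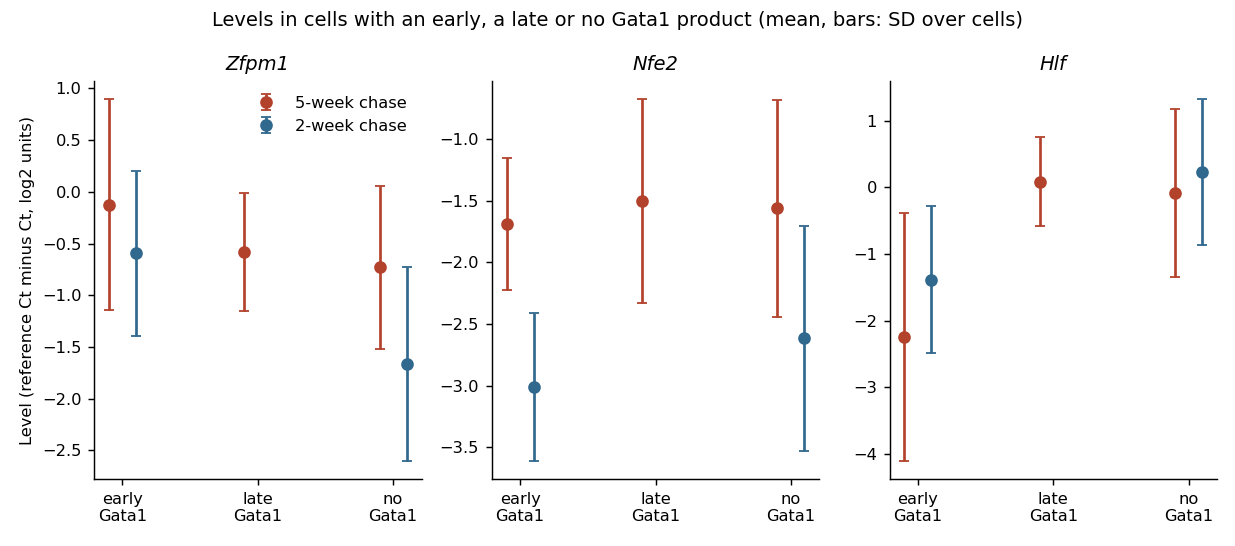
Mean level (log2 units, bars are SD over cells) of Zfpm1, Nfe2 and Hlf in cells with an early (Ct 18 or below), a late (Ct 18 to 25) or no Gata1 product, for 5-week cells (red, 23 early and 12 late) and 2-week cells (blue, 21 early). At 5 weeks the late class sits beside the cells with no product for Hlf, and Nfe2 separates by chase time rather than by class.

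The assays most like each member were ranked by the partial Spearman correlation across the cells of a plate, given the reference Ct, on the weakest of the 4 plates. The points of a plate share a chip and a run, the plates held 83 to 93 cells, and undetected reactions were set at the detection limit. Only assays detected in at least 10% of the cells on every plate were ranked, which left out Klf1. For Gata1, of 80 assays ranked, Zfpm1 was highest (0.26 to 0.36 over plates) and Epor was among the first 3 (0.22 to 0.24). The lowest were Hlf, a transcription factor of stem cells (-0.44 to -0.24), and Ly6a, the Sca1 gene (-0.38 to -0.18). For Klf1 the highest was Gata1 (0.36 to 0.41), above the value of Gata1 and Zfpm1 on the weakest plate. Klf1 and Gata1 were found together in 3 to 5 cells per plate. Their correlation therefore mostly repeats the co-detection given above, and none was computed over cells with both products. Next came Itga2b, the platelet integrin CD41 (0.19 to 0.30), and Zfpm1 (0.16 to 0.19). Hlf (-0.32 to -0.22) and Notch1 (-0.26 to -0.12) were lowest for Klf1.

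Zfpm1 ranked vwf, the von Willebrand factor gene, first (0.29 to 0.35), with Gata1 also among its first 3 assays. Over cells with both products only, the weakest plate gave 0.096 for vwf and 0.11 for Gata1. At the other end were Hlf (-0.39 to -0.23) and the cytokine receptor Flt3 (-0.28 to -0.21). Epor had Gata1 and Zfpm1 (0.18 to 0.28) among its first 3 and Hlf (-0.30 to -0.11) and Flt3 (-0.28 to -0.06) lowest. Nfe2 stood apart from the other 4. Its highest assays, Lyl1 (0.07 to 0.27), Notch1 (0.06 to 0.22) and mettl7a1 (0.06 to 0.23), and its lowest, CDK4 (-0.19 to -0.06) and Tcf3 (-0.09 to -0.03), were weak on at least 1 plate each. CDK4 and Hlf are reference assays, so the reference Ct held here includes their own Ct. With it not held, Nfe2 gave 0.11 to 0.34 with CDK4 and 0.05 to 0.34 with Tcf3. Hlf stayed negative with Gata1 (-0.40 to -0.22), Zfpm1 (-0.33 to -0.19), Klf1 (-0.27 to -0.22) and Epor (-0.21 to -0.09). Correlations this weak in single-cell data are descriptions only.

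The same genes can be read as levels and shares in the Gata1 classes, over the same cells that gave the correlations. Hlf stood at -2.25 ± 1.86 in cells with an early Gata1 product, 0.09 ± 0.67 with a late one and -0.09 ± 1.26 with none at 5 weeks, and at -1.39 ± 1.10 with an early product and 0.23 ± 1.09 with none at 2 weeks (SD). Hlf is 1 of the 12 reference assays. Without it, in a check added after the data were seen, the difference between early and no Gata1 over all cells was -2.09 for Hlf and 0.71 for Zfpm1. Itga2b was detected in 20 of 23 cells (86.96%), 4 of 12 (33.3%) and 46.8% of cells with none at 5 weeks, and in 18 of 21 (85.7%) and 33.95% at 2 weeks. Ly6a was detected in 10 of 23 (43.5%), 9 of 12 (75%) and 77.7% of cells with none at 5 weeks, and in 10 of 21 (47.6%) and 96.9% at 2 weeks.

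Of a list of 9 GATA1 partners and blood stem cell factors, 8 were on the panel: Gata2, Tal1, Lmo2, Ldb1, Lyl1, Cbfa2t3, Runx1 and Gfi1b. Tal1, Lmo2 and Ldb1 join GATA factors in a complex on DNA, and Gfi1b encodes a transcriptional repressor that acts in erythroid cells and megakaryocytes. At 5 weeks 6 of the 8 were detected in more cells with plates apart and 0 in fewer, where 42.7% of all assays were higher and 7.29% lower, with a median difference of 4.30 points against 2.85 for all assays. The largest were Tal1, 97.7% of 5-week cells against 81.97% of 2-week cells, and Gfi1b, 74.7% against 60.1%. In level 7 of the 8 were higher (40% of all assays were) and Lmo2 was lower (-0.10), with a median of 0.37 against 0.00 for all assays. Gata2, Ldb1 and Lmo2 are themselves reference assays, and without centring all 8 were higher, as were 61.2% of all assays. The differences ran up to 0.65 for Ldb1 and 0.57 for Lyl1, below those of Nfe2 and Zfpm1.

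Of the megakaryocyte genes listed, Itga2b, vwf and Fli1 are described here. Itga2b was detected in 51.1% of 5-week cells against 39.9% of 2-week cells, vwf in 51.1% against 34.4% and Fli1, an ETS-family factor of megakaryocytes, in 97.7% against 93.99%. In the logistic fit with the reference Ct, the difference between 5 and 2 weeks was -2.17 points for Itga2b, 12.5 for vwf and 3.08 for Fli1. Most Itga2b products were late, with 17 of 89 at 5 weeks and 5 of 73 at 2 weeks at Ct 18 or below, and whether the late ones are Itga2b cDNA was not tested. In level Fli1 (0.71) and Itga2b (0.59) were higher with plates apart, as were 40% of the 80 assays. The level of vwf overlapped (-0.03), although vwf was higher without centring and lower when the members were among the reference assays. Of 8 erythroid genes listed, such as globins, 0 were on the panel. Of 5 factors of other lineages, 2 (Sfpi and Ikzf1) were detected in more cells with plates apart, 1 (Gfi1) in fewer and 2 (Cebpa and Flt3) overlapped, where 42.7% of all assays were higher and 7.29% lower. Their median difference in share was 0.13 points. At the Ct 18 limit 1 was higher and 2 were lower, with a median of -5.62 points, and with the reference Ct matched 1 was higher and 0 were lower. In level Flt3, a receptor of lymphoid and myeloid progenitors, was lower at 5 weeks under each scaling, while the calls of the others depended on the scaling. Flt3 products at Ct 18 or below numbered 53 of 82 at 5 weeks and 84 of 86 at 2 weeks. Whether the late ones are Flt3 cDNA was not tested. With early products only, Flt3 was also lower in level, as were 20% of 70 assays.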

How the data were processed

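Per the labels' protocols, cDNA made from each lysed cell was pre-amplified in multiplex for 22 cycles, treated with exonuclease, diluted 5-fold and measured by 30 cycles of EvaGreen PCR on a microfluidic chip. The authors deposited the threshold cycle as a score per assay and cell, not normalized, with 999 for no product. The software that set the thresholds is not given in the sources used here. Wells without a cell were not analysed here. From this table were computed detection at Ct 25 or below (18, 20, 23 and no limit as alternatives), levels for 80 assays (10 or more cells with the product on each plate), shares matched over 4 bins of reference Ct or of the number of detected assays, and correlations. No 2 cells had identical values, and all 357 cells were used. The reference assays were Gapdh, Actb, Kit, Hlf, Meis1, Gata2, Ldb1, Lmo2, Etv6, Trp53, Ccnd2 and CDK4. Assays were named in the text by a rule: the 5 members, for each member the 3 highest and 2 lowest assays by correlation, and the listed genes. Some genes the rule takes are not reported here. The members and lists were chosen with earlier results of these data known. Steps were tested on simulated plates. Promoter sequences are from RefSeq, with 4 of the 5 members matched by symbol and gene ID. Python 3.11.15, numpy 2.4.6, pandas 2.3.3, scipy 1.17.1, statsmodels 0.14.6 and matplotlib 3.10.9 were used.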

Additional observations from a re-analysis of the deposited data

How the results depend on the processing

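The count of 4 members detected in more cells at 5 weeks became 0 when times were matched over bins of the reference Ct. It was 4 or 5 when a plate was left out, but this step cannot remove a call, since fewer plates then have to lie apart. Over all 96 assays the same step raised the number called higher from 41 to between 45 and 59. The counts in level with a plate left out have the same limit. The same matching turned the difference in share of Klf1 to -1.18 points and of Epor to -1.50, and the logistic fit gave -0.75 and -2.15. Without 5-week plate 1 the Epor difference was 3.99 points, without 5-week plate 2 12.8. The count of 1 member with a lower level, Gata1, became 0 at a Ct limit of 20, 0 when wells over 2 SD from their plate were left out (Gata1 then had under 10 detecting cells on a plate and no value) and 0 over all cells with undetected reactions at the limit, where the Gata1 difference was 0.070. It became 2, with Epor added, when the members were among the reference assays, and ran between 1 and 2 when a plate was left out (2 without 5-week plate 2). Without 5-week plate 1, Epor was called higher in level and the count of higher members went to 3. Among correlations, on their weakest plate, CDK4 and Tcf3 turned to 0.34 and 0.34 with Nfe2 when the reference Ct was not held. Over cells with both products only, the value was 0.24 for Gata1 and Hlf, -0.0094 for Nfe2 and Lyl1, -0.22 for Epor and Zfpm1 and 0.083 for Epor and Hlf. Among alternatives for single members, 45 differences in share and 40 in level stayed within the spread of plates, 14 and 18 moved beyond it, and 4 and 1 of those called with plates apart turned sign. Some of those that stayed could not move. Zfpm1 had no late products, so its differences of 2.70 points and 0.90 log2 units were the same at every Ct limit. The spread was also wide for the share of Epor, 5.59 points, so that a fall from 8.57 to 3.99 lay within it. The level difference of Epor, which was not called, ran from -0.25 to 0.50 over its alternatives. The causes of these turns were not tested. The differences in co-detection kept their direction in all 12 alternatives run, which changed only the Ct limit. Most products came at Ct 18 or below: 44 of 56 for Gata1, 17 of 22 for Klf1 and 88 of 91 for Epor. These limits therefore left most products in place, and none of them held the reference Ct. In the last bin of reference Ct the order turned, with Klf1 in 0 of 3 cells with Gata1 against 1 of 86. Epor was in 0 of 3 against 8 of 86 there, too few cells to decide. In the other bins the order held. No paired analysis was possible because the numbers of cells and plates pair nothing across times and no test was made.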

Other observations

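Values of 3 further genes in the Gata1 classes are given here, picked after they were seen. Gfi1 encodes a transcriptional repressor that acts in the granulocyte and lymphoid lineages. It was detected in 0 of 44 cells with an early Gata1 product, which allows a share of up to 6.82%. It was found in 1 of 12 cells with a late product and in 38 of 301 cells with none (12.6%, exact 95% interval 9.09 to 16.9%). Within the times, cells with no Gata1 held Gfi1 in 13 cases (9.35%) at 5 weeks and 25 (15.4%) at 2 weeks. Slamf1, the CD150 gene used in the sort, was detected in 17 of 23 cells with an early product (73.9%), 9 of 12 with a late one and 51.1% of cells with none at 5 weeks, and in 18 of 21 (85.7%) and 70.4% of cells with none at 2 weeks. The level of CDK6, a cyclin-dependent kinase of G1 phase, was -0.82 ± 2.10 in cells with an early product, -4.13 ± 3.44 with a late one and -3.16 ± 2.81 with none at 5 weeks, and -1.62 ± 2.37 and -3.80 ± 3.18 at 2 weeks (SD over detecting cells). These are values of cells from 1 sample per time, and none was tested.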
